A study of Mus musculus with 8 samples.

Results

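The profile described here runs through the ventral tongue, the underside of the mouse tongue, from the first to the last of 20 serial sections. It was made by tomo-seq, which slices frozen tissue one thin layer after another. The RNA of every slice is barcoded on its own before sequencing. Both ventral tongue samples of the series were taken, replicate 1 and replicate 2, each with 20 sections of 14 µm that together span 280 µm. All 40 ventral tongue sections held at least 10000 unique molecular identifiers (UMIs, each marking 1 captured RNA molecule) and all were kept, out of 160 sections in the whole series. The other samples of the series came from 3 sites, hard palate, dorsal tongue (its upper face) and buccal mucosa (lining the cheek), with 2 replicates a site. All 8 samples came from wild-type C57BL/6J mice, and the labels give neither the age nor whether the replicates of a site were separate animals. P-values therefore describe how far these samples scatter, and part of that scatter may be technical. Libraries were made by CEL-seq2, a method that primes at the poly(A) tail and counts the 3′ ends of transcripts.

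The underside of the tongue is covered by a stratified squamous epithelium. Its basal keratinocytes sit on a basement membrane and divide, and their daughters move outward, join through desmosomes, switch keratins and build a cornified envelope of cross-linked proteins and lipids before they are shed. Below the basement membrane lie a lamina propria of fibroblasts, matrix, vessels and nerves, and then the striated muscle that moves the tongue. The labels do not say which end of the block faced the mouth. Section 1 was taken as that end, because the genes of the cornified envelope peaked in section 1 of both replicates and the genes of the sarcomere, the contractile unit of striated muscle, peaked in sections 20 and 16 of replicates 1 and 2. Low section numbers are therefore called the surface end and high numbers the deep end. Since these lists set the names of the ends, the direction in which envelope and sarcomere genes run is not a result.

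Replicate 1 held 16182531 UMIs, with 402939 to 1591539 UMIs in a section, and replicate 2 held 20526538 UMIs, with 610595 to 1240604 UMIs in a section. Section depth was lowest near the surface end in replicate 1, where its Spearman correlation with section number was 0.63, against 0.32 in replicate 2. Values below are CPM, the share of a section's UMIs that a gene took times 1000000, so a gene's value can also be lower because others took more. Fewer cells of a type and less RNA per cell cannot be told apart in such sections. A UMI of 6 bases allows at most 4096 distinct tags, and 100 genes exceeded 2048 UMIs in some ventral tongue section. UMI counts of such genes level off, so the deposited read counts, scaled to CPM of reads, are given for them where they matter.

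The labelled tissue was checked against markers of the cell types that the block could hold. The 10 keratinocyte markers summed to 24920 and 14750 CPM in sections 1–5 of replicates 1 and 2, against 12330 and 11250 CPM in sections 16–20. Krt4 and Krt13, both near the UMI limit, were the largest of them, so these sums rest largely on counts that level off. Krt4 alone had 8559 and 4281 CPM in sections 1–5, against 4757 and 3689 CPM in sections 16–20. Over the 20 sections Krt4 held 81860 and 81759 UMIs and Krt13 81774 and 81895, near the limit of 4096 a section. The CPM of these genes therefore follow section depth and do not measure a difference between the ends. The 8 skeletal muscle markers summed to 5766 and 9548 CPM in sections 1–5, against 17830 and 13870 CPM in sections 16–20. Myh4, the largest of these, was near the UMI limit too. Read counts of Krt4, Krt13 and Myh4 are given with the lists below. Acta1, the actin of skeletal muscle, was low among them, with 6.92 and 6.04 CPM over the whole profiles, and Myh2, a fast myosin heavy chain, had 42.5 and 3.95 CPM. The 4 taste cell markers summed to at most 2.09 CPM and the 3 bone markers to at most 0.837 CPM in any of these regions, and Adipoq, the adipocyte hormone adiponectin, had 1 UMI in each replicate. The hard keratins Krt84 and Krt36, which mark filiform papillae of the upper surface, reached 373 and 751 CPM and 265 and 556 CPM in ventral tongue replicates 1 and 2, against 2194 and 2600 CPM and 2339 and 2544 CPM in dorsal tongue. The other papilla markers were far lower in ventral tongue. Krt31 had 11.3 and 16.3 CPM, against 334 and 259 CPM in dorsal tongue. Krt86 had 4.51 and 6.43 CPM, against 390 and 290 CPM.

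Several libraries stood apart, and their part in the results was not tested beyond the values given here. Replicate 1 read Xist, expressed from the inactive X chromosome, at 146 CPM and Ddx3y, a gene of the Y chromosome, at 2.04 CPM. Replicate 2 read them at 2.19 and 104 CPM. The replicates of each other site were opposite too. Xist had 166 and 0.511 CPM in buccal mucosa, 197 and 1.77 CPM in dorsal tongue and 0.225 and 338 CPM in hard palate, and Ddx3y ran the other way. The labels give no sex, and an effect of sex cannot be told apart from the replicate. Section 10 of ventral tongue replicate 2 carried secretory transcripts that section 10 of buccal mucosa replicate 1 and of dorsal tongue replicate 2 also carried, at nearly equal counts, as described with the middle sections below. Buccal mucosa replicate 2 went against its label, with 40.4 CPM of the basal keratin Krt5, against 1629 to 3056 CPM in the other samples of the series, and 5376 CPM of the salivary transcript Bpifa2; it enters the ventral tongue tests through the shared estimate of spread, and the totals are also given without it.

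The first comparison asked which genes differ between the surface end and the deep end. UMI counts were summed over sections 1–5 and over sections 16–20 of each sample and compared by edgeR's quasi-likelihood test. The sample was a block in the model, and all 4 sites shared 1 estimate of spread. Of 15803 genes tested, 1788 were higher in sections 1–5 and 1924 were lower at an adjusted p under 0.05, that is 11.3% and 12.2% of the genes tested. Over all 15803 genes tested, 12408 had the same direction in both replicates, as had 6107 of the 6945 genes of at least 20 CPM. Of the 3712 genes that passed, a choice that rests on both replicates, 3711 had the same direction in both. The fold was at least 2 for 885 of the higher genes and 1345 of the lower ones. Without buccal mucosa replicate 2 the test called 2373 higher and 2452 lower genes, and without buccal mucosa replicate 1 it called 2361 and 2453. Without dorsal tongue replicate 1 or 2 it called 1023 or 1019 higher genes and 1317 lower ones in both cases. Without hard palate replicate 2 it called 1182 higher and 1581 lower genes. With the ventral tongue samples alone it called 2831 genes, of which 2538 were among the 3712. The calls rested on replicate 1: without it no gene passed the edgeR test (smallest adjusted p 0.0658, with 2688 genes at an unadjusted p under 0.05; no other tool was run), although 3711 of the 3712 genes kept their direction in replicate 2 alone, and without replicate 2 the test called 1307 higher and 1670 lower genes.

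Among the genes that passed, the profile was steeper in replicate 1 than in replicate 2. The ratio between the ends was larger in replicate 1 for 3458 of the 3712 genes, with a median absolute log2 ratio of 1.40 in replicate 1 and 0.79 in replicate 2. Since the calls rested on replicate 1, the choice of these genes favours those steep in replicate 1. How much of the difference comes from that choice was not tested. The plot of end-to-end ratios shows this as a cloud that lies along both axes in the same direction but flatter than the line of equal ratios. The single gene that passed the test with opposite directions was Klk9, a kallikrein protease, with 50.1 and 0.419 CPM in sections 1–5, against 13.6 and 0.541 CPM in sections 16–20 of replicates 1 and 2.

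**Figure D1:**
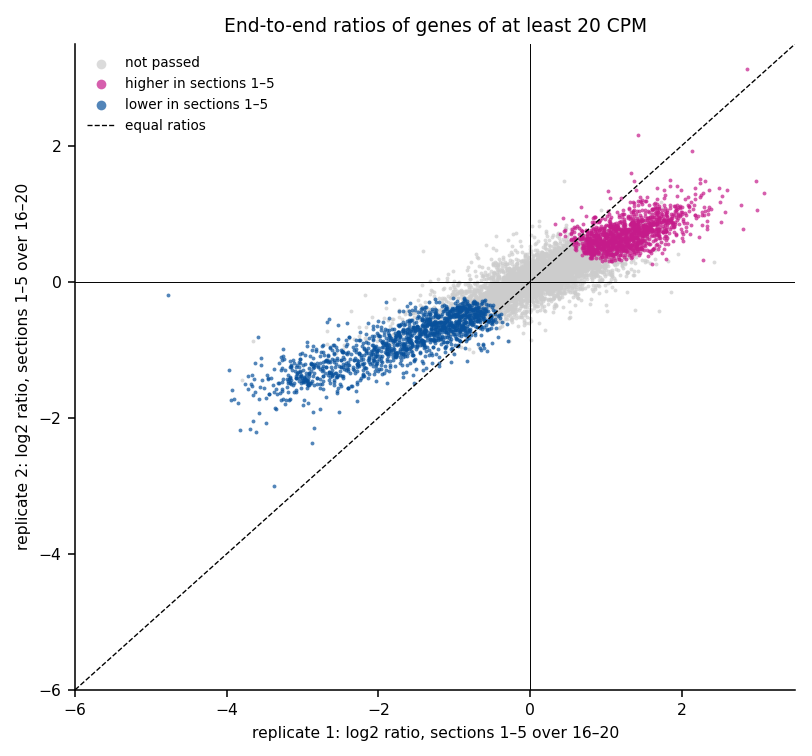
Each point is a gene of at least 20 CPM, with its log2 ratio of sections 1–5 over sections 16–20 in replicate 1 (x axis) and in replicate 2 (y axis); coloured genes passed the test across all genes and the dashed line marks equal ratios. Over all 3712 genes that passed, drawn or not, all but 1 had the same direction in both replicates. Their median absolute log2 ratio was 1.40 in replicate 1 and 0.79 in replicate 2.

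The genes named at the surface end were the 14 largest rises among genes that passed the test, reached 50 CPM, did not overlap between ends and followed the section order in both replicates; 675 genes met these conditions. Their log2 fold changes ran between 1.74 and 2.21, with adjusted p between 0.0107 and 0.0330. In the values that follow, the first of a pair is replicate 1 and the second replicate 2. The log2 fold change is sections 1–5 over sections 16–20 (n = 2 replicates). After ± stands a standard error, the absolute log2 fold change over the square root of the edgeR F statistic. The spread behind it was estimated over all 8 samples, so it does not measure the scatter of the 2 ventral tongue replicates alone.

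Mal, a proteolipid that sorts membrane cargo to the apical side of epithelial cells, had the largest rise, with 247 and 88.96 CPM in sections 1–5, against 30.5 and 31.02 CPM in sections 16–20 (log2 fold change 2.21 ± 0.39, adjusted p = 0.0108). Scel, which encodes sciellin, a precursor of the cornified envelope, had 83.5 and 42.9 CPM in sections 1–5, against 8.91 and 16.8 CPM in sections 16–20 (log2 fold change 2.15 ± 0.44, adjusted p = 0.0121). Sprr2k, a small proline-rich envelope protein, had 120.3 and 81.4 CPM in sections 1–5, against 18.99 and 31.2 CPM in sections 16–20 (log2 fold change 1.94 ± 0.29, adjusted p = 0.0107). For all 3 genes the surface value was higher in replicate 1 than in replicate 2, and both surface values lay above both deep values.

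Among enzymes, Arg1, the arginase that cleaves arginine to ornithine and urea, had 551 and 506 CPM in sections 1–5, against 106 and 198 CPM in sections 16–20 (log2 fold change 1.81 ± 0.31, adjusted p = 0.0107). Nt5e, the ecto-nucleotidase that makes extracellular adenosine, had 172 and 126 CPM in sections 1–5, against 29.5 and 55.2 CPM in sections 16–20. Dnase1l3, a secreted DNase, had 76.4 and 52.3 CPM in sections 1–5, against 8.67 and 24.5 CPM in sections 16–20. The surface values of Arg1 were close to each other, and its deep values lay further apart. Nat8l, which makes N-acetylaspartate in brain, had 60.99 and 52.96 CPM in sections 1–5, against 11.5 and 18.2 CPM in sections 16–20. Slc6a19, the neutral amino acid transporter of gut and kidney brush borders, had 203 and 159 CPM in sections 1–5, against 41.96 and 57.5 CPM in sections 16–20. Psca, a glycolipid-anchored surface protein, had 71.01 and 61.8 CPM in sections 1–5, against 11.7 and 23.1 CPM in sections 16–20. The log2 fold changes of these 5 genes other than Arg1 were between 1.78 and 1.93.

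Ptprf, a receptor phosphatase at cell contacts, had 469 and 402 CPM in sections 1–5, against 80.4 and 166 CPM in sections 16–20 (log2 fold change 1.85 ± 0.27, adjusted p = 0.0107). The transcription factor Klf4, needed for barrier formation in skin, had 897 and 495 CPM in sections 1–5, against 127 and 288 CPM in sections 16–20 (log2 fold change 1.74 ± 0.41, adjusted p = 0.0174). It fell further in replicate 1, where its deep value was below that of replicate 2. Meis2, a homeobox factor, had 63.9 and 56.1 CPM in sections 1–5, against 13.4 and 20.9 CPM in sections 16–20 (log2 fold change 1.75 ± 0.32, adjusted p = 0.0108). Crabp2, the retinoic acid carrier of keratinocytes, had 535 and 335 CPM in sections 1–5, against 109.5 and 135 CPM in sections 16–20 (log2 fold change 1.75 ± 0.49, adjusted p = 0.03298). It passed in only 2 of the 8 fits that left out 1 sample of the series. CT010467.1, an entry whose kind of transcript was not examined, had 1047 and 1256 CPM in sections 1–5, against 389 and 279.9 CPM in sections 16–20 (log2 fold change 1.75 ± 0.31, adjusted p = 0.0108). It passed in 6 of 8 such fits and jumped between neighbouring sections rather than changing smoothly. The other 12 genes passed in 7 of the 8 fits, all except the one without ventral tongue replicate 1. Fits without a sample of another site keep both ventral tongue samples and change only the shared spread, filter and normalisation. A fit without a ventral tongue replicate leaves 1 ventral tongue sample. The count of fits passed is therefore no measure of agreement between the ventral tongue replicates.

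The genes named at the deep end were the 14 largest falls under the same conditions, which 773 genes met. Their log2 fold changes ran between -3.39 and -2.55, with adjusted p between 0.0107 and 0.04999.

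Ampd1, the adenylate deaminase of skeletal muscle, had 6.27 and 18 CPM in sections 1–5, against 104 and 64.2 CPM in sections 16–20 (log2 fold change -2.73 ± 0.47, adjusted p = 0.0108). Perm1, a muscle factor induced with the co-activator Ppargc1a, had 6.27 and 55.05 CPM in sections 1–5, against 107 and 184 CPM in sections 16–20 (log2 fold change -2.60 ± 0.61, adjusted p = 0.0181). Popdc2, a membrane protein of striated muscle, had 7.94 and 17.2 CPM in sections 1–5, against 109 and 54.6 CPM in sections 16–20 (log2 fold change -2.58 ± 0.53, adjusted p = 0.0128). In each of these genes the lowest value was the surface end of replicate 1, and both deep values lay above both surface values. Plin5, which coats lipid droplets in oxidative tissue, had 2.92 and 10.7 CPM in sections 1–5, against 47.1 and 53.2 CPM in sections 16–20 (log2 fold change -2.90 ± 0.43, adjusted p = 0.0107). Slc25a34, a mitochondrial carrier, had 3.76 and 13.4 CPM in sections 1–5, against 55.8 and 53.6 CPM in sections 16–20. The deep values of Plin5 and Slc25a34 were nearly equal in the replicates, and their surface values differed by more.

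The group also held 3 genes of fatty acid uptake. Fabp4, a fatty acid carrier of adipocytes and capillary endothelium, had 29.7 and 105 CPM in sections 1–5, against 386 and 335 CPM in sections 16–20 (log2 fold change -2.65 ± 0.84, adjusted p = 0.0473). Cd36, a fatty acid transporter, had 25.5 and 95.2 CPM in sections 1–5, against 294 and 315 CPM in sections 16–20 (log2 fold change -2.58 ± 0.73, adjusted p = 0.0334). Lpl, the lipoprotein lipase made by muscle and fat, had 96.9 and 329.7 CPM in sections 1–5, against 1245 and 856 CPM in sections 16–20 (log2 fold change -2.55 ± 0.82, adjusted p = 0.04999). Lpl stood at the threshold and passed in 5 of the 8 fits that left out a sample, as did Cd36, and Fabp4 in 2. The adipocyte markers Adipoq, Plin1 and Cidec were at 0 or 1 UMI in each replicate.

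Retnla, a small secreted protein of the resistin family, had 27.99 and 29.5 CPM in sections 1–5, against 299 and 245 CPM in sections 16–20 (log2 fold change -3.27 ± 0.46, adjusted p = 0.0107). Its Spearman correlations with section number were 0.97 and 0.99. Abcb4, a phospholipid transporter known from the bile canaliculus, had 7.94 and 26.4 CPM in sections 1–5, against 106 and 89.5 CPM in sections 16–20 (log2 fold change -2.56 ± 0.56, adjusted p = 0.0147). 2310075C17Rik, whose role is unassigned, had the largest fall, with 8.35 and 2.09 CPM in sections 1–5, against 117 and 11.7 CPM in sections 16–20 (log2 fold change -3.39 ± 0.54, adjusted p = 0.0107). It read higher in replicate 1, at 69.4 CPM over the whole profile, than in replicate 2, at 6.77 CPM. The remaining 3 entries, Gm49668, Gm15543 and 2310065F04Rik, have no assigned role, and had log2 fold changes of -2.97, -2.91 and -2.63. All of these except Fabp4, Cd36 and Lpl passed in 7 of the 8 fits.

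**Figure D2:**
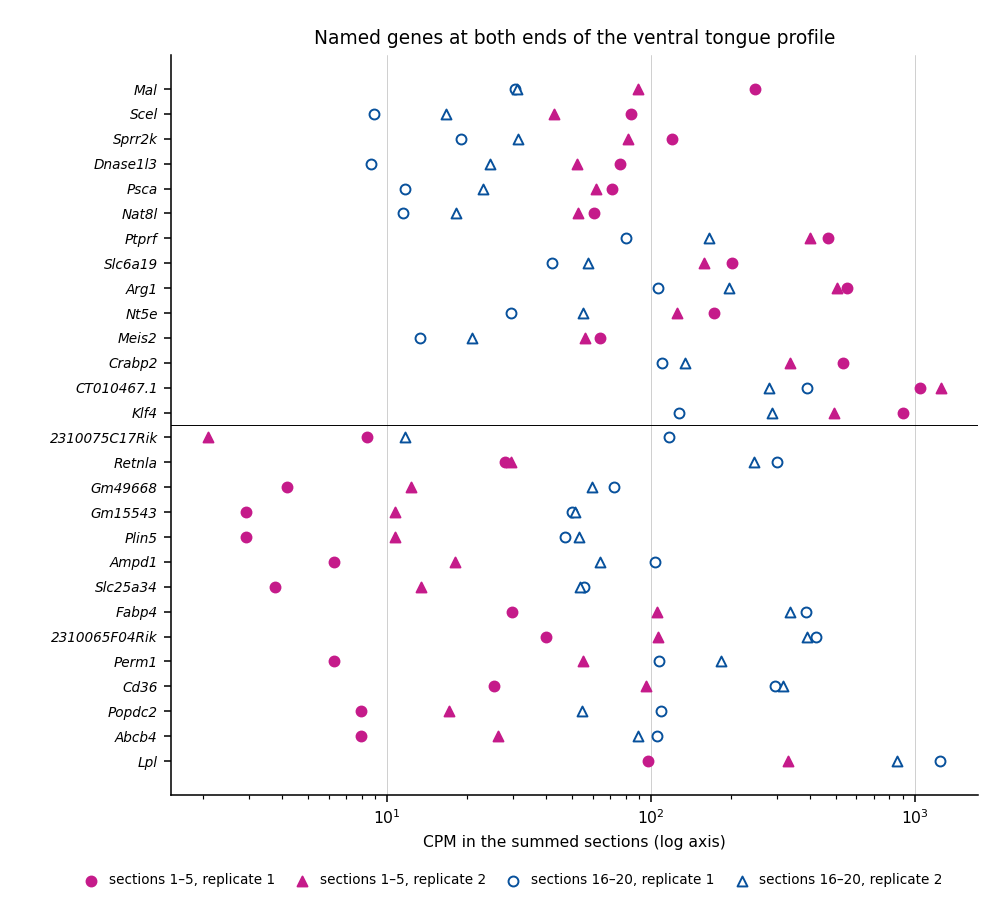
CPM on a log axis of the 14 largest rises and the 14 largest falls in sections 1–5 (filled) and sections 16–20 (open) of each replicate, circles marking replicate 1 and triangles replicate 2. For every gene both values of one end lie on the same side of both values of the other, which was a condition of the choice; Mal had 247 and 88.96 CPM at the surface end, against 30.5 and 31.02 CPM at the deep end.

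Promoters are shown for the 3 largest rises and the 3 largest falls that have exactly 1 entry in the RefSeq table of GRCm38.p6, which held 19 of the 28 named genes, and for Mylk4, a kinase of striated muscle chosen after its values were seen because its promoter holds both muscle motifs searched. Each runs over 300 bases, 250 before and 50 after the transcription start, and capitals mark matches on either strand to TGANTCA (the AP-1 site), CAGCTG (an E-box, bound by myogenic factors), MEF2 (named only) or TATAAA (the TATA box). The genes of the surface end lie at chr2:127656646-127656945 on the minus strand (Mal), chr14:103513091-103513390 on the plus strand (Scel) and chr3:92432332-92432631 on the plus strand (Sprr2k). Those of the deep end lie at chr9:112227206-112227505 on the plus strand (2310075C17Rik), chr16:48842359-48842658 on the plus strand (Retnla), chr6:145182025-145182324 on the plus strand (Gm15543) and chr13:32783915-32784214 on the minus strand (Mylk4).
Mal: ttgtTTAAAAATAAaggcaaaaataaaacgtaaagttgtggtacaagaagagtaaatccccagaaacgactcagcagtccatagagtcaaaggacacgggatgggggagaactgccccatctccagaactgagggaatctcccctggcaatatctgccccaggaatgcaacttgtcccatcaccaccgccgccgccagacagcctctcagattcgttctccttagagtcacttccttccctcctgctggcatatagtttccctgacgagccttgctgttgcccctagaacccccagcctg
Scel: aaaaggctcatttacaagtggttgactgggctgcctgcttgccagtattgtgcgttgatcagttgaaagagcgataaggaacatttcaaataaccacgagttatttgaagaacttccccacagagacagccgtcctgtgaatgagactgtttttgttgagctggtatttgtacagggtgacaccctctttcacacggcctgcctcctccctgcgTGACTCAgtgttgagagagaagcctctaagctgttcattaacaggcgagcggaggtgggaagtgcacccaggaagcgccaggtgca
Sprr2k: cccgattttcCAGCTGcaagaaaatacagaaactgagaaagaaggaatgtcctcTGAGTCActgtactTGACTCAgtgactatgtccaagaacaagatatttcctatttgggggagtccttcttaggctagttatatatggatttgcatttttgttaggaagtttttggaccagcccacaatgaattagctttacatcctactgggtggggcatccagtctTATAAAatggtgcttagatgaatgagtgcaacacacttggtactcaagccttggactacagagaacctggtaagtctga
2310075C17Rik: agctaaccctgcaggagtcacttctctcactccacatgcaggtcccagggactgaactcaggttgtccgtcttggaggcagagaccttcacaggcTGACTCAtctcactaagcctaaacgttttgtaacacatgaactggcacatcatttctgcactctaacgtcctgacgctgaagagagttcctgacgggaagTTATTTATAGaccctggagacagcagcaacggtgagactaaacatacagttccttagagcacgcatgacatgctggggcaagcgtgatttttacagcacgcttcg
Retnla: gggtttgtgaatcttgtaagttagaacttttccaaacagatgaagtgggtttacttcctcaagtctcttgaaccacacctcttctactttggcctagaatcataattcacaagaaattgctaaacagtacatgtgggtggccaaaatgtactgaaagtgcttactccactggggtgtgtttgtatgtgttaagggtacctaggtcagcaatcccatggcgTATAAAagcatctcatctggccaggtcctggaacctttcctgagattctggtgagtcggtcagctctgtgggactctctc
Gm15543: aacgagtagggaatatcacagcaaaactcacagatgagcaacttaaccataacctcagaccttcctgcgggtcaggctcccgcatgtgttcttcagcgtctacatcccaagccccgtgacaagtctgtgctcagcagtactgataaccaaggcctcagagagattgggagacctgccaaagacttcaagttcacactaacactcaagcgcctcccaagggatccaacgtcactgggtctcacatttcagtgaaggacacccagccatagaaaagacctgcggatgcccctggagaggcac
Mylk4: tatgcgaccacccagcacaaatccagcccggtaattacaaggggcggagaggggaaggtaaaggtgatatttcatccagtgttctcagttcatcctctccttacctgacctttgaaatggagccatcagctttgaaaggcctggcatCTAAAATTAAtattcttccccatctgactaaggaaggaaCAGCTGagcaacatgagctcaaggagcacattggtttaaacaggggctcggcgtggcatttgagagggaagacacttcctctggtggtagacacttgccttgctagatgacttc
Scel holds 1 AP-1 match 36 bases before the start, and Sprr2k holds a pair of AP-1 matches, an E-box and a TATA box 29 bases before the start. Mal holds 1 MEF2 match near the distal end of its window. The MEF2 match of 2310075C17Rik overlaps a TATAAA on the opposite strand, and that promoter also holds 1 AP-1 match. Retnla holds a TATA box 30 bases before the start, Mylk4 an E-box and a MEF2 match, and no motif searched was in the window of Gm15543. Over the promoters of the 675 surface genes (644 promoters of the 499 genes found) and of the 773 deep genes (804 promoters of the 613 found), AP-1 matches occurred in 9.63% and 7.09%, MEF2 matches in 1.55% and 4.85%, E-boxes in 18.5% and 19.7% and TATA boxes in 9.47% and 7.96%. The shares over all 32851 promoters of the table were 7.81%, 3.19%, 16.3% and 13.6% in the same order of motifs. A match is a stretch of letters and no evidence that a factor binds there. Mylk4 itself had 3.76 and 21.8 CPM in sections 1–5, against 71.3 and 67.5 CPM in sections 16–20 (log2 fold change -2.52 ± 0.47, adjusted p = 0.0108).

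The same comparison was then read over lists of genes with known roles. Over all genes tested the median log2 fold change was 0.02, with 11.3% called higher and 12.2% called lower in sections 1–5, and each list is read against these values. Genes named from the lists are the most abundant members and the called member with the largest fold; others were chosen after their values were seen.

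The cornified envelope list held 51 genes, of which 49 were tested: 22 were higher in sections 1–5, 0 were lower and 27 did not pass, with a median log2 fold change of 0.87. Sprr3, a small proline-rich envelope protein of oral epithelium, had 6501 and 3522 CPM in sections 1–5, against 1921 and 2124 CPM in sections 16–20 (adjusted p = 0.0395). Rptn, repetin, an envelope protein of the tongue and skin, had 30.5 and 30.1 CPM in sections 1–5, against 3.05 and 9.02 CPM in sections 16–20 (log2 fold change 2.29 ± 0.52, adjusted p = 0.0158). Spink5, the inhibitor of the kallikreins that release corneocytes, had 898 and 691 CPM in sections 1–5, against 185 and 349 CPM in sections 16–20 (adjusted p = 0.0278). Loricrin, Lor, the main envelope protein of skin, was near the UMI limit and did not pass, with 6174 and 3815 CPM in sections 1–5, against 3309 and 3226 CPM in sections 16–20 (adjusted p = 0.152). By reads, which do not level off there, Lor had 8221 and 7407 CPM of reads in sections 1–5, against 3108 and 5038 CPM of reads in sections 16–20 (log2 fold change 0.66, adjusted p = 0.278).

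Barrier lipid enzymes, which make and process the ceramides and fatty acids between cornified cells, gave 28 tested genes, of which 16 were higher in sections 1–5, 0 were lower and 12 did not pass. Alox12b and Aloxe3, the lipoxygenases that oxidise acylceramides in turn, were both higher. Alox12b had 932 and 732 CPM in sections 1–5, against 356 and 434 CPM in sections 16–20. Aloxe3 had 593 and 389.5 CPM in sections 1–5, against 206 and 241 CPM in sections 16–20. Gltp, a glycolipid transfer protein, was higher as well, with 416 and 561 CPM in sections 1–5, against 165 and 344 CPM in sections 16–20. Elovl4, which elongates very long fatty acids, had 707 and 652 CPM in sections 1–5, against 219.9 and 363 CPM in sections 16–20 and did not pass (adjusted p = 0.341). Among 28 tested genes of desmosomes and other junctions, 14 were higher in sections 1–5, 0 were lower and 14 did not pass, with a median of 1.03. Dsc2, a desmosomal cadherin, had 842 and 651 CPM in sections 1–5, against 211 and 255 CPM in sections 16–20 (log2 fold change 1.62 ± 0.21, adjusted p = 0.0107). Perp, a desmosomal membrane protein, had 1366 and 1312 CPM in sections 1–5, against 488 and 817 CPM in sections 16–20 (adjusted p = 0.0298). Dsp, the plaque protein desmoplakin, had 3854 and 2420 CPM in sections 1–5, against 1526 and 1711 CPM in sections 16–20 and did not pass (adjusted p = 0.0693).

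The transcription factors of keratinocyte differentiation had the largest called share of the epithelial lists: of 35 tested, 22 were higher in sections 1–5, 0 were lower and 13 did not pass, with a median of 1.03. Hopx, a homeodomain protein of upper layers, had 1074 and 586 CPM in sections 1–5, against 313 and 283 CPM in sections 16–20 (log2 fold change 1.36 ± 0.24, adjusted p = 0.0108). Klf5, a factor of basal and early differentiating cells, had 557 and 474 CPM in sections 1–5, against 147 and 257 CPM in sections 16–20 (log2 fold change 1.35 ± 0.29, adjusted p = 0.0136). Pitx1, a homeobox factor of oral epithelium, had 689 and 447 CPM in sections 1–5, against 221 and 276 CPM in sections 16–20 (log2 fold change 1.11 ± 0.24, adjusted p = 0.0143). Of 35 tested genes of mucosal defence, 18 were higher in sections 1–5, 0 were lower and 17 did not pass. Defb4, a beta-defensin, had 762 and 1456 CPM in sections 1–5, against 359 and 983 CPM in sections 16–20 (adjusted p = 0.0319). Il1f8, an interleukin of epithelia, had 85.2 and 65.5 CPM in sections 1–5, against 21.8 and 29.6 CPM in sections 16–20 (log2 fold change 1.49 ± 0.23, adjusted p = 0.0107). Slpi, a secreted protease inhibitor, had 2624 and 2600 CPM in sections 1–5, against 1464 and 1950 CPM in sections 16–20 and did not pass (adjusted p = 0.114).

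Genes of basal and dividing cells that passed were all higher at the surface end. Of 19 tested genes of the basal layer, 8 were higher in sections 1–5, 0 were lower and 11 did not pass, with a median of 0.98. Col17a1, a collagen of hemidesmosomes, had 357 and 479 CPM in sections 1–5, against 92.6 and 219 CPM in sections 16–20 (log2 fold change 1.48 ± 0.27, adjusted p = 0.0108). Krt15, a keratin of basal cells, had 1605 and 1381 CPM in sections 1–5, against 561 and 839 CPM in sections 16–20 (adjusted p = 0.0475). Krt5 and Krt14, the keratin pair of basal cells, did not pass (adjusted p = 0.141 and 0.141). Krt5 had 3285 and 2053 CPM in sections 1–5, against 1133 and 1312 CPM in sections 16–20. Krt14 had 1860 and 1540 CPM in sections 1–5, against 639 and 961 CPM in sections 16–20. Bcam, also among the most abundant members, ran the other way and did not pass (log2 fold change -0.42, adjusted p = 0.109). It had 282 and 241 CPM in sections 1–5, against 383 and 295 CPM in sections 16–20. The log2 fold change was above 0 for 15 of the 19 basal layer genes. Of 32 tested cell cycle genes, 18 were higher in sections 1–5, 0 were lower and 14 did not pass, with a median of 1.03. Top2a, a topoisomerase of dividing cells, had 125 and 109 CPM in sections 1–5, against 41.3 and 61.1 CPM in sections 16–20 (log2 fold change 1.15 ± 0.23, adjusted p = 0.0116). Mki67, the antigen of cycling cells, had 107 and 89.4 CPM in sections 1–5, against 27.4 and 54.3 CPM in sections 16–20 (adjusted p = 0.0204). Cenpe, a kinetochore motor, had 33.4 and 27.4 CPM in sections 1–5, against 5.86 and 12.1 CPM in sections 16–20 (log2 fold change 1.69 ± 0.30, adjusted p = 0.0108). Both deep values of Mki67 stayed above 20 CPM.

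Of 19 tested keratins of the suprabasal layers, 3 were higher in sections 1–5, 0 were lower and 16 did not pass. That share of higher genes is near the 11.3% over all genes, and 6 of the list were near the UMI limit. Krt13 and Krt4, the keratin pair of lining mucosa, did not pass (adjusted p = 0.4598 and 0.4904). Both stood near the UMI limit along the profiles, so their CPM of UMIs follow section depth. Krt13 had 8528 and 4285 CPM in sections 1–5, against 4762 and 3693 CPM in sections 16–20. Krt4 had 8559 and 4281 CPM in sections 1–5, against 4757 and 3689 CPM in sections 16–20. By reads Krt13 had 80290 and 101200 CPM of reads in sections 1–5, against 21090 and 47870 CPM of reads in sections 16–20 (log2 fold change 1.18, adjusted p = 0.0798). By the same measure Krt4 had 104800 and 72370 CPM of reads in sections 1–5, against 20450 and 25760 CPM of reads in sections 16–20 (log2 fold change 1.60, adjusted p = 0.0504). Krt80, a keratin of differentiating epithelia, had 32.2 and 12.8 CPM in sections 1–5, against 9.61 and 3.43 CPM in sections 16–20 (log2 fold change 1.75 ± 0.38, adjusted p = 0.0147). Of 19 tested hard keratins of papillae and hair, 0 were higher in sections 1–5, 3 were lower and 16 did not pass, with a median of -0.66. That share of lower genes is near the 12.2% over all genes. The 3 lower genes included Krtap13-1, a keratin-associated protein, with 63.1 and 89.8 CPM in sections 1–5, against 139.5 and 147 CPM in sections 16–20 (adjusted p = 0.0335). Krt81, a hair cortex keratin, had 14.2 and 26.6 CPM in sections 1–5, against 30.2 and 53.9 CPM in sections 16–20 (adjusted p = 0.0161), and the third was Krt34. Krt84 and Krt36 did not pass (adjusted p = 0.267 and 0.5603). Krt84 had 304 and 619.8 CPM in sections 1–5, against 373 and 754 CPM in sections 16–20. Krt36 had 197 and 453 CPM in sections 1–5, against 303 and 579.8 CPM in sections 16–20.

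Of the muscle lists, the sarcomere list was the one used to name the deep end. Of 42 tested sarcomere genes, 1 was higher in sections 1–5, 24 were lower and 17 did not pass, with a median of -1.89 against 0.02 over all genes. The genes that did not pass were mostly those near the UMI limit, which 15 of the list were. Myh4, the fast myosin heavy chain of type IIb fibres, had 2756 and 3326 CPM in sections 1–5, against 4771 and 3658 CPM in sections 16–20 (adjusted p = 0.555). By reads it had 2494 and 5330 CPM of reads in sections 1–5, against 20070 and 15130 CPM of reads in sections 16–20 (log2 fold change -2.58, adjusted p = 0.0361). Mybpc1, a myosin-binding protein, had 222 and 307 CPM in sections 1–5, against 1306 and 939.5 CPM in sections 16–20 (log2 fold change -2.13 ± 0.42, adjusted p = 0.0115). Myh2, the heavy chain of type IIa fibres, passed with 2.09 and 3.35 CPM in sections 1–5, against 83.2 and 3.97 CPM in sections 16–20 (adjusted p = 0.0272), but only replicate 1 held it at the deep end. The 1 sarcomere gene that was higher in sections 1–5 was Tpm3, a tropomyosin of slow muscle that non-muscle cells also make, with 271 and 239 CPM in sections 1–5, against 149.6 and 169.7 CPM in sections 16–20 (adjusted p = 0.0277).

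Genes of calcium release and excitation had 29 members tested, of which 0 were higher in sections 1–5, 24 were lower and 5 did not pass, with a median of -2.16. Pvalb, the calcium buffer of fast fibres, had 90.6 and 395 CPM in sections 1–5, against 1007 and 1061 CPM in sections 16–20 (log2 fold change -2.48 ± 0.61, adjusted p = 0.0205). Srl, sarcalumenin, which binds calcium in the sarcoplasmic reticulum, had 147 and 326 CPM in sections 1–5, against 1195 and 841 CPM in sections 16–20 (log2 fold change -2.23 ± 0.47, adjusted p = 0.0132). Chrna1, the alpha subunit of the acetylcholine receptor at the nerve-muscle junction, had 3.76 and 5.23 CPM in sections 1–5, against 33.99 and 31.4 CPM in sections 16–20 (log2 fold change -2.86 ± 0.60, adjusted p = 0.0135). Atp2a1, the calcium pump of fast fibres, did not pass by UMIs at 3293 and 3459 CPM in sections 1–5, against 4740 and 3651 CPM in sections 16–20. By reads it had 3328 and 6655 CPM of reads in sections 1–5, against 23860 and 17560 CPM of reads in sections 16–20 (log2 fold change -2.44, adjusted p = 0.0949).

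Of 29 tested genes of muscle energy metabolism, 0 were higher in sections 1–5, 24 were lower and 5 did not pass, with a median of -2.08. Slc25a4, the mitochondrial ATP carrier of muscle, had 1109 and 1663 CPM in sections 1–5, against 4029 and 2858 CPM in sections 16–20 (adjusted p = 0.04499). Ckm, muscle creatine kinase, had 814 and 1729 CPM in sections 1–5, against 3892 and 3127 CPM in sections 16–20 and did not pass by UMIs (adjusted p = 0.07198). By reads its log2 fold change was -2.65 (adjusted p = 0.0268). Among 23 tested myogenic regulators and satellite cell genes, 0 were higher in sections 1–5, 13 were lower and 10 did not pass, with a median of -1.64. Mef2c, a transcription factor of muscle, had 106 and 296 CPM in sections 1–5, against 559.8 and 522 CPM in sections 16–20 (adjusted p = 0.0309). Trim63, a ubiquitin ligase of the sarcomere, had 31.8 and 43.3 CPM in sections 1–5, against 202 and 112 CPM in sections 16–20 (log2 fold change -2.03 ± 0.36, adjusted p = 0.0108). Vgll2, a co-factor of muscle transcription, had 2.09 and 4.396 CPM in sections 1–5, against 40.1 and 13.3 CPM in sections 16–20 (adjusted p = 0.021). Pax7 and Myod1, which mark satellite cells and their activation, did not pass (adjusted p = 0.5601 and 0.158). Pax7 had 2.09 and 3.56 CPM in sections 1–5, against 1.88 and 1.98 CPM in sections 16–20. Myod1 had 2.92 and 7.54 CPM in sections 1–5, against 8.44 and 11.7 CPM in sections 16–20.

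Stromal lists had calls in both directions, at shares under or near the 11.3% and 12.2% over all genes. Of 44 fibroblast and matrix genes, 2 were higher in sections 1–5, 3 were lower and 39 did not pass, with a median of -0.31. Col3a1 and Dcn, a fibrillar collagen and the proteoglycan decorin, did not pass (adjusted p = 0.641 and 0.616). Col3a1 had 1339 and 2000 CPM in sections 1–5, against 1777 and 2060 CPM in sections 16–20. Dcn had 901 and 1101 CPM in sections 1–5, against 1234 and 1122 CPM in sections 16–20. Pi16, which marks adventitial fibroblasts, was lower, with 5.43 and 5.44 CPM in sections 1–5, against 35.2 and 28.3 CPM in sections 16–20 (log2 fold change -2.56 ± 0.25, adjusted p = 0.0107), as were Ogn and Loxl1. Tnc and Crabp1 were higher. Tnc, the matrix protein tenascin C, had 29.2 and 43.5 CPM in sections 1–5, against 9.38 and 17.7 CPM in sections 16–20. Of 20 basement membrane genes, 2 were higher in sections 1–5, 3 were lower and 15 did not pass. Nid1, nidogen, had 10.9 and 37.5 CPM in sections 1–5, against 68.5 and 75.8 CPM in sections 16–20 (adjusted p = 0.0328). Lamb2, a laminin of muscle and vessel, had 45.5 and 64.3 CPM in sections 1–5, against 94.7 and 100.3 CPM in sections 16–20 (adjusted p = 0.0366). Col4a1 was lower too, whereas Col4a6 and Col18a1 were higher.

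Endothelial genes that passed were all lower in sections 1–5. Of 26 tested endothelial genes, 0 were higher in sections 1–5, 13 were lower and 13 did not pass, with a median of -0.98. Pecam1, an adhesion protein between endothelial cells, had 25.5 and 56.7 CPM in sections 1–5, against 90.5 and 91.98 CPM in sections 16–20 (adjusted p = 0.0426). Gpihbp1, which anchors Lpl to the capillary wall, had 2.92 and 11.1 CPM in sections 1–5, against 36.6 and 31.6 CPM in sections 16–20 (log2 fold change -2.26 ± 0.47, adjusted p = 0.01303). Of 19 smooth muscle and pericyte genes, 2 were higher in sections 1–5, 5 were lower and 12 did not pass. Rgs5, a pericyte regulator of G protein signalling, had 63.9 and 149.5 CPM in sections 1–5, against 247 and 273 CPM in sections 16–20 (adjusted p = 0.0299). Synpo2, an actin-binding protein that striated muscle also expresses, had 40.1 and 70.96 CPM in sections 1–5, against 319.8 and 151 CPM in sections 16–20. The other 3 lower genes were Smtn, Pln and Abcc9. Ndufa4l2, a mitochondrial protein of pericytes, was higher in sections 1–5, with 447 and 341 CPM in sections 1–5, against 165 and 156 CPM in sections 16–20 (adjusted p = 0.0236), as was the receptor Notch3. Among the globins, Hbb-bs, a beta globin of red blood cells, had 203 and 458 CPM in sections 1–5, against 906 and 831 CPM in sections 16–20 and did not pass (adjusted p = 0.119).

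Immune lists gave few calls. Those in the nerve list went both ways, at shares near the 11.3% and 12.2% over all genes. Of 21 tested Schwann cell and nerve genes, 3 were higher in sections 1–5, 3 were lower and 15 did not pass. Prx, Cnp and Sncg were lower, while Mal, Erbb3 and Ngfr, which epithelial cells also express, were higher. Of 30 genes of antigen presentation and macrophages, 1 was higher in sections 1–5, 0 were lower and 29 did not pass. The 1 gene was Cd207, langerin, the marker of Langerhans cells, with 1.67 and 2.303 CPM in sections 1–5, against 0.234 and 0.1804 CPM in sections 16–20 (adjusted p = 0.0262). These values rest on few UMIs. Cd74, the invariant chain of antigen presentation, had 155 and 201 CPM in sections 1–5, against 159.9 and 189 CPM in sections 16–20 (adjusted p = 0.941). Of 18 tested lymphocyte and mast cell genes 1 was lower, the mast cell tryptase Tpsb2, with 6.68 and 14.02 CPM in sections 1–5, against 22.5 and 21.1 CPM in sections 16–20 (adjusted p = 0.0345). Of 9 lymphatic genes 1 was lower, Stab2, with 0 and 0.837 CPM in sections 1–5, against 3.05 and 5.23 CPM in sections 16–20. Of 17 tested adipocyte genes 5 were lower and none higher. Pnpla2, a triglyceride lipase that muscle also expresses, had 93.2 and 233 CPM in sections 1–5, against 474 and 557 CPM in sections 16–20 (log2 fold change -1.84 ± 0.41, adjusted p = 0.0151). The other 4 were Fabp4, Plin4, Scd1 and Acsl1.

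Lists of signalling pathways had calls at both ends, some of them at shares near the 11.3% and 12.2% over all genes. Of 39 tested Wnt pathway genes, 9 were higher in sections 1–5, 2 were lower and 28 did not pass. The ligand Wnt4 had 386 and 371 CPM in sections 1–5, against 132 and 224 CPM in sections 16–20 (adjusted p = 0.0325). Wnt7b, Wnt10a and Wnt16 were higher too, with the secreted inhibitors Sfrp1, Sfrp2, Dkk2 and Dkk3 and the transcription factor Tcf7. Sfrp1 had 352 and 224 CPM in sections 1–5, against 146 and 131 CPM in sections 16–20 (adjusted p = 0.0268). The receptor Fzd4 and the co-receptor Lrp6 were lower. Fzd4 had 27.1 and 42.9 CPM in sections 1–5, against 83.9 and 79.4 CPM in sections 16–20 (adjusted p = 0.0426). Of 16 Notch pathway genes, 5 were higher in sections 1–5, 2 were lower and 9 did not pass. The target Hes1 had 222 and 254 CPM in sections 1–5, against 109 and 159 CPM in sections 16–20 (log2 fold change 0.80 ± 0.16, adjusted p = 0.01195). The feedback inhibitor Nrarp had 108 and 159.7 CPM in sections 1–5, against 39.1 and 93.6 CPM in sections 16–20 (log2 fold change 1.05 ± 0.22, adjusted p = 0.0133). The receptor Notch1 had 39.7 and 40.4 CPM in sections 1–5, against 11.5 and 25.4 CPM in sections 16–20 (adjusted p = 0.01997). Jag1 and Notch3 were also higher. Notch4, the endothelial receptor, and the target Hey1 were lower.

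Of 31 tested genes of the EGF, FGF and neuregulin families, 9 were higher in sections 1–5, 2 were lower and 20 did not pass. Receptors made up 5 of the higher genes, Egfr, Erbb2, Erbb3, Fgfr2 and Fgfr3. Fgfr2 had 297 and 249.7 CPM in sections 1–5, against 117 and 158 CPM in sections 16–20 (log2 fold change 0.95 ± 0.20, adjusted p = 0.01395). Fgfr3 had 79.8 and 83.9 CPM in sections 1–5, against 22.97 and 47.2 CPM in sections 16–20 (log2 fold change 1.23 ± 0.24, adjusted p = 0.0111). The ligands Ereg, Hbegf and Fgf22 and the FGF-binding protein Fgfbp1 were the other 4. Fgf1 was lower, with 9.61 and 8.79 CPM in sections 1–5, against 51.8 and 23.1 CPM in sections 16–20 (log2 fold change -1.93 ± 0.36, adjusted p = 0.0108), as was Fgf13, which acts inside the cell on sodium channels. Of 35 BMP and TGF-beta pathway genes, 5 were higher in sections 1–5, 4 were lower and 26 did not pass, shares near the 11.3% and 12.2% over all genes. Bmp3, Bmp7, the antagonists Grem1 and Fstl3 and the inhibitor Smad7 were higher, and Bmp6, Bmpr1b, Ltbp1 and the antagonist Nog were lower. Bmp6 had 6.68 and 12.3 CPM in sections 1–5, against 44.8 and 30.7 CPM in sections 16–20 (log2 fold change -1.94 ± 0.38, adjusted p = 0.0112). The ligand Bmp4 had 67.7 and 90.2 CPM in sections 1–5, against 62.4 and 71.4 CPM in sections 16–20 and did not pass (adjusted p = 0.6604).

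Of 46 tested transcription factors that pattern tongue and face, 6 were higher in sections 1–5, 9 were lower and 31 did not pass, with a median of 0.05. These shares are not far from the 11.3% and 12.2% over all genes. Pitx1, Nkx2-3, Meis1, Meis2, Pbx3 and Foxp2 were higher. The lower genes included Tbx1, Tbx3, Tbx15, Nkx2-5, Msx1, Six2, Foxf2 and Gli1. Tbx15 had 26.3 and 103 CPM in sections 1–5, against 175 and 231 CPM in sections 16–20 (log2 fold change -1.92 ± 0.41, adjusted p = 0.0143).

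The mitochondrial genome gave a different picture by UMIs and by reads, since 8 of its 11 tested genes were near the UMI limit. By UMIs 0 were higher in sections 1–5, 2 were lower and 9 did not pass, and the median log2 fold change was -0.23. By reads 0 were higher and 7 were lower, with a median of -1.85. Mt-Nd4, a subunit of respiratory complex I, had 7871 and 4241 CPM in sections 1–5, against 4852 and 3694 CPM in sections 16–20 (log2 fold change 0.40). By reads it had 22190 and 31930 CPM of reads in sections 1–5, against 105500 and 66650 CPM of reads in sections 16–20 (log2 fold change -1.98, adjusted p = 0.0231). Mt-Co1, a subunit of cytochrome oxidase, was lower by both, with 540.1 and 1248 CPM in sections 1–5, against 2260 and 2168 CPM in sections 16–20 (adjusted p = 0.02102) and a log2 fold change of -1.91 by reads. By reads these genes ran in the direction of the muscle genes. Of 21 immediate early and stress genes, 4 were higher (Hspa1a, Hspa1b, Dnajb1 and Junb), 1 was lower (Nr4a1) and 16 did not pass. Hspa1b, a heat shock protein, had 295 and 299 CPM in sections 1–5, against 137 and 172 CPM in sections 16–20 (log2 fold change 0.90 ± 0.20, adjusted p = 0.0161).

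The second comparison followed each gene over all 20 sections. Spearman's rank correlation of CPM with section number was at or under -0.7 in both replicates for 1040 of 6945 genes of at least 20 CPM (15%) and at or over 0.7 in both for 1020 (14.7%). Replicate 1 alone gave 1794 and 1531 such genes, and replicate 2 alone 1184 and 1123. After thinning every section to 402939 UMIs, which both evens the depths and removes counts, the count at the surface side was 652 and at the deep side 725. The correlations share the section depths of their replicate and are given as a description. A single gene passed 0.7 in opposite directions, Fdps, an enzyme of cholesterol synthesis, with correlations of 0.89 and -0.76. The named genes Arg1 and Ptprf had correlations of -0.97 and -0.98, and -0.97 and -0.95, and the deep genes Lpl and Cd36 0.99 and 0.91, and 0.96 and 0.98. The plot of single genes shows that Klf4 ran over a narrower range in replicate 2 than in replicate 1. Retnla peaked in section 17 of replicate 1 and section 20 of replicate 2.

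**Figure D3:**
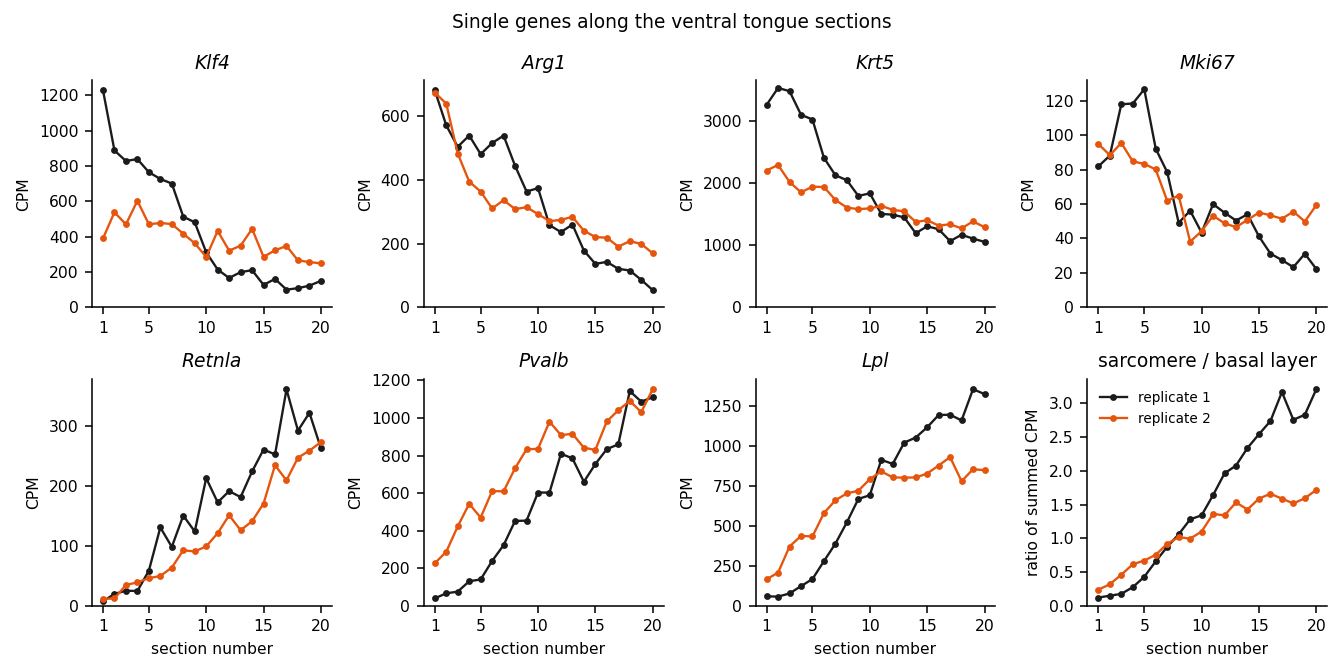
CPM in each of the 20 sections of 7 genes in replicate 1 (black) and replicate 2 (orange), and in the last panel the summed CPM of 33 sarcomere genes over that of 18 basal layer genes. Klf4, Arg1, Krt5 and Mki67 are highest at low section numbers and Retnla, Pvalb and Lpl at high numbers; the ratio runs to 3.21 in section 20 of replicate 1 and to 1.72 in section 20 of replicate 2.

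The lists were placed along the profile by the section at which their mean log2(CPM + 1), as a running median over 3 sections, had gone halfway between both ends. The lists of the cornified envelope, desmosomes, barrier lipids and mucosal defence peaked in section 1 of both replicates, the keratinocyte transcription factors in section 2, and the basal layer and the cell cycle genes in section 3. These peaks were not tested against each other, and in replicate 2 the cell cycle list stood at 4.73 in both section 3 and section 1. The basal layer went halfway at sections 10 and 8 of replicates 1 and 2, the cornified envelope at 10 and 10, and the cell cycle genes at 11 and 7. All 4 muscle lists went halfway at section 6 in both replicates. The difference between the ends was 1.33 and 0.74 on this scale for the cornified envelope, and -2.64 and -1.08 for the sarcomere. With members of at least 20 CPM, 18 of 57 halfway positions moved by more than the SD between replicates, and with a running median over 5 sections 8 of 61. The summed sarcomere genes that stayed under 2048 UMIs stood at 0.123 and 0.239 of the summed basal genes in section 1, and at 3.21 and 1.72 in section 20. Both kinds of transcript were present in every section of both replicates.

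**Figure D4:**
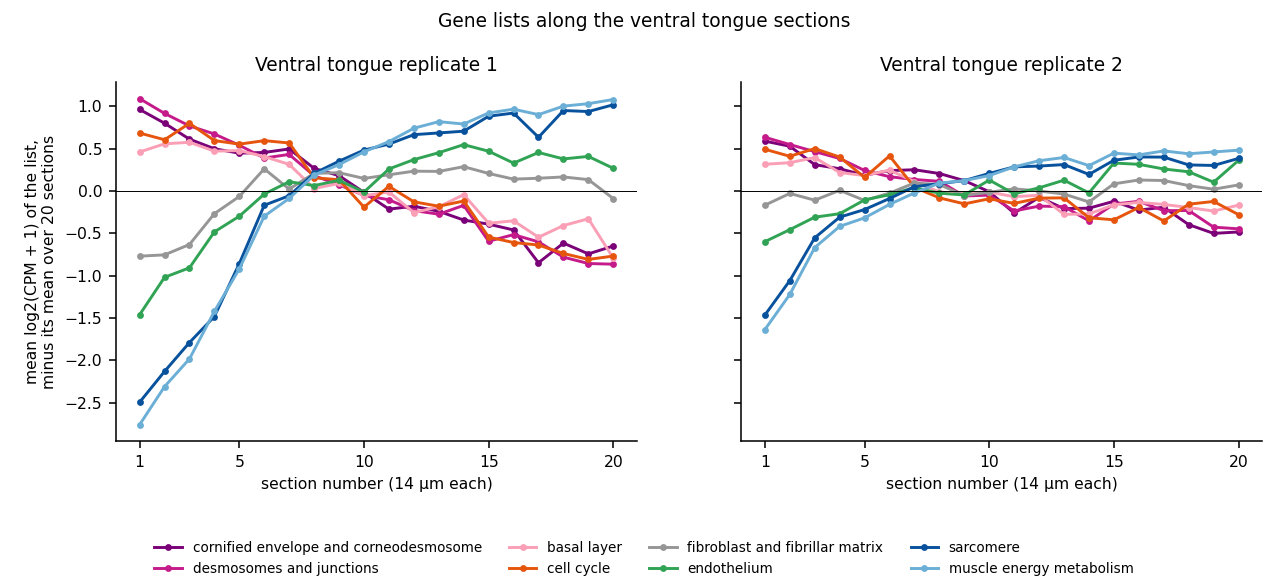
Mean log2(CPM + 1) of the members of 8 lists in each section, minus the list's mean over the 20 sections, for each replicate. In replicate 1 the sarcomere and muscle energy lists span 2.64 and 2.88 between the ends, and in replicate 2 every list drawn runs in the same direction over a smaller range, 1.08 and 1.31 for these 2 lists.

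The third comparison asked whether any gene was highest or lowest in the middle, sections 8–12, against both ends. Of 16200 genes tested with edgeR, 5 passed (0.0309%), all higher in the middle, and 636 had an unadjusted p under 0.05. When either buccal mucosa replicate was left out, 8 passed. The 5 genes that passed with all samples were Car6, a secreted carbonic anhydrase, Mucl2, a mucin-like protein, and the secretoglobins Scgb1b27, Scgb2b26 and Scgb2b27, all products of glands. Car6 had 0 and 156 CPM in sections 8–12 of replicates 1 and 2, against 0 and 0.837 CPM in sections 1–5 and 0 and 0.361 CPM in sections 16–20. Mucl2 had 0 and 747 CPM in sections 8–12, against 0 and 25.1 CPM in sections 1–5 and 0 and 21.5 CPM in sections 16–20. The signal came from replicate 2 and, within it, from section 10. Without that section, or without replicate 2, no gene passed, and DESeq2 called none in the full data.

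In section 10 of replicate 2 these 5 genes and Prol1, Pip and Bpifa2, 3 more secreted proteins of glands, stood at least 5-fold above the neighbouring sections and above 100 CPM. Mucl2 had 3837 UMIs there, against at most 34 in any other section of replicate 2. Scgb2b27 had 2008 UMIs, against at most 7, and Car6 809, against at most 2. Together the 8 genes made up 9862 of 1152288 UMIs, 0.856% of that section. The same transcripts appeared in section 10 of 2 further samples at nearly the same counts: Mucl2 had 3837 UMIs in ventral tongue replicate 2, 3751 in buccal mucosa replicate 1 and 3824 in dorsal tongue replicate 2. Scgb2b27 had 2008 UMIs in ventral tongue replicate 2, against 1708 and 2021 in those samples, and Car6 809, against 691 and 784. By reads Scgb2b27 had 2960 in ventral tongue replicate 2, against 2327 and 2934. In section 10 of ventral tongue replicate 1 the 8 genes had 1 UMI in all, and in dorsal tongue replicate 1 none. They had 1998 UMIs in section 10 of buccal mucosa replicate 2, and 90 and 9 in section 10 of hard palate replicates 1 and 2. Dcpp1, a demilune cell marker of salivary glands, had 0 UMIs in both ventral tongue replicates, and Aqp5, the water channel of acinar cells, had 2 and 1. Whether the transcripts came from tissue in that section was not tested. Amy1, an amylase, was spread over the profile instead, with 7.101 and 10.7 CPM in sections 1–5, against 27.2 and 17.7 CPM in sections 16–20 (adjusted p = 0.259).

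**Figure D5:**
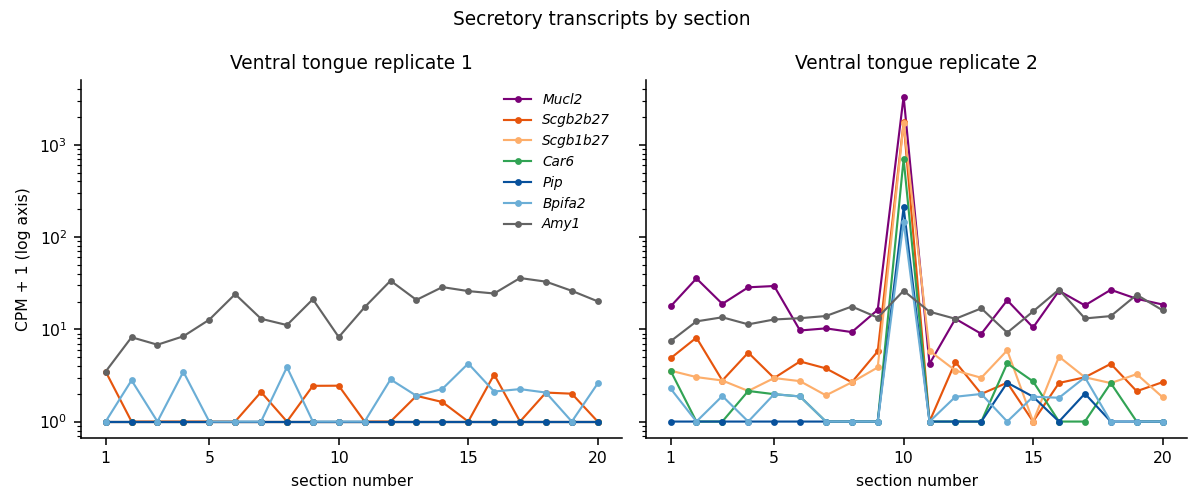
CPM + 1 on a log axis in each section for 7 secretory genes in both replicates. In replicate 2, 6 genes rise together in section 10 only, Mucl2 with 3837 UMIs, while Amy1 keeps a low level along both profiles and the other genes stay near 0 in replicate 1.

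The last comparison asked whether the ratio between the ends differed between ventral tongue and the 3 other sites, as an interaction in the same edgeR fit. No gene of 15803 passed (smallest adjusted p 0.159, 2005 genes at an unadjusted p under 0.05), and DESeq2 called 7 genes with a higher and 31 with a lower ratio in ventral tongue. On simulated counts this edgeR comparison recovered 12% of 2-fold and 90% of 4-fold changes, with 17 false calls. The lack of calls therefore does not show that the sites are alike at about 2-fold or less. Without buccal mucosa replicate 2, the sample that went against its label, edgeR called 2 higher and 24 lower. The gene with the smallest p was Tmem229b, a membrane protein of unassigned role, with 15.04 and 24.3 CPM in sections 1–5 and 27.4 and 35.4 CPM in sections 16–20 of ventral tongue, against 189 to 286 CPM in sections 1–5 and 64.3 to 126 CPM in sections 16–20 of dorsal tongue and hard palate. Buccal mucosa had 40.1 and 11.5 CPM in sections 1–5 and 17.3 and 6.85 CPM in sections 16–20. The gene was named after its values were seen.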

How the data were processed

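Wild-type C57BL/6J oral mucosa was profiled by tomo-seq. Section RNA was isolated with the NucleoSpin RNA XS kit, per the labels' protocols, and made into CEL-seq2 libraries, sequenced on a NextSeq500. Per the submitters' processing notes, Trim Galore 0.6.10, STAR 2.7.9a and GRCm38 were used; the sources used here name no counting program. For each sample the authors deposited UMI counts per gene and section, read counts per gene and section, and estimated counts of transcripts made from the UMI counts with a correction for UMI collisions. UMI counts were used unless reads are named; the estimated counts, rounded to whole numbers, and read counts were alternatives. Of 33549 entries, 413 name several genes and took 0.185 to 0.251% of UMIs.

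Sections under 10000 UMIs were dropped (none in ventral tongue) and CPM computed per section. Sections 1–5 and 16–20 were summed per sample, giving 16 libraries, filtered with filterByExpr, TMM-normalised and tested with edgeR 4.0.16 (glmQLFTest, R 4.3.3, 4 residual degrees of freedom, Benjamini-Hochberg adjustment, all tests two-sided), with the sample as a block because both ends come from the same tissue block. Each ventral tongue value rests on 2 samples. DESeq2 1.42.0, RLE factors, no low-count filter, other end widths, sections of at least 1000 UMIs, ventral tongue alone, no block and leaving out each sample were tried, and the scripts were tested on simulated data. Order was Spearman's rho, and list profiles were means of log2(CPM + 1) over members of at least 5 CPM. The 28 genes named for the ends were chosen by the rule stated in the text, 4 genes per list by abundance plus the largest called fold. The members, the 33 lists (904 genes) and the tests were chosen with earlier results of these data known. Some list members are not reported here. Promoter sequences come from the RefSeq table of GRCm38.p6; the files' build is GRCm38. Python 3.11.15, numpy 2.4.6, pandas 2.3.3, scipy 1.17.1 and matplotlib 3.10.9 were used.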

Additional observations from a re-analysis of the deposited data

How the results depend on the processing

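For the comparison of the ends, leaving out 1 sample at a time gave 0 to 2373 higher and 0 to 2453 lower genes, and the 0 belongs to the fit without ventral tongue replicate 1. No replicate block, which ignores that both ends come from the same tissue block, left 0 higher and 0 lower genes (2181 at an unadjusted p under 0.05, all 3712 genes in the same direction). With ventral tongue alone 1057 genes were higher, and higher genes made up 37.3% of the calls, against 48.2% in the main test. With 7 sections an end they made up 59.9%, at 2435 higher and 1631 lower genes, and the median over all genes was 0.12. For the section order, a threshold of 0.5 gave 1823 and 1572 genes, a threshold of 0.8 gave 547 and 658, and thinned sections 652 at the low side. For the middle, no filter on low counts gave 166 higher and 4 lower genes, DESeq2 0, no replicate block 0, ventral tongue alone 2, no section 10 of ventral tongue replicate 2 (an alternative chosen after seeing the data) 0, and leaving out 1 sample 0 to 8 higher and 0 to 1 lower. For the sites, no filter gave 232 higher and 210 lower, DESeq2 7 and 31, 7 sections an end 1 lower, the other sites without buccal mucosa 4 lower, and leaving out 1 sample 0 to 2 higher and 0 to 24 lower. The causes were not tested. Of the named genes 3 reversed, all near the UMI limit: by reads mt-Nd4 had a log2 fold change of -1.98, mt-Cytb -1.89 and mt-Nd1 -2.02, and mt-Nd1 -1.74 by estimated transcripts. The test rests on 2 ventral tongue samples.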

Other observations

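Of 3944 genes of at least 50 CPM in either replicate, 23 differed at least 8-fold between the replicates over the whole profile, 16 of them higher in replicate 1 and 7 higher in replicate 2. Besides Xist, Ddx3y and the secretory genes, B2m, the light chain of MHC class I, stood at 475 CPM in replicate 1 and 10.7 CPM in replicate 2. Cdh23, a cadherin known from hair cells of the inner ear, stood at 504 and 4.34 CPM, Klk10, a kallikrein, at 499 and 14.2 CPM, and Dpt, the matrix protein dermatopontin, at 184 and 14.7 CPM. B2m and Cdh23 also ranged widely among the other sites: B2m reached 8.38 to 710 CPM and Cdh23 2.46 to 1073 CPM in the other 6 samples. No test was made of these differences.

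Single sections also carried isolated signals. Chil4, a chitinase-like protein, had 570 UMIs in section 18 of replicate 2, against 2 to 13 in the other sections, and 11 in all of replicate 1; it passed the test of the ends (log2 fold change -4.50) with section 18 among those summed, and no fit without it was run.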
